A study of Mus musculus with 4 samples.

Results

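The 10 genes described here mark adipocytes or build, coat and break down lipid droplets, and they were read in reprogramming fibroblasts. They were Pparg, Cebpa, Cd36, Lpl, Fabp4, Plin2, Plin4, Dgat1, Dgat2 and Pnpla2. The genes were given as a list of symbols, not picked by a threshold here but listed with earlier results of these data known. All 10 were among the 32230 symbols of the expression table. All 10 also passed the filter on low values that left 14621 genes for testing. Polyadenylated RNA had been sequenced from 4F2A mouse embryonic fibroblasts, whose genome holds Oct4, Sox2, Klf4 and Myc, the reprogramming factors, under doxycycline control. The cells came from homozygous male mid-gestation embryos and were cultured with LIF in serum replacement medium. Both groups had doxycycline at 2 µg/mL from day 0. One group had DMSO, the vehicle, for 1 h on day 0. The other had CX-5461, an inhibitor of RNA polymerase I, for 1 h on day 0. RNA was taken from both on day 2. Each group had 2 libraries, numbered 2 and 3. The sources used here do not give the strain, the promoter that drives the factors or the dose of CX-5461. The comparison asks how a short exposure to CX-5461 at the onset of reprogramming altered these transcripts on day 2.

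A fibroblast that turns into an adipocyte first induces C/EBP factors, which switch on Pparg and Cebpa, and these factors then maintain each other and activate the genes of fat storage. Fatty acids released from lipoproteins by lipoprotein lipase enter through CD36 and are carried in the cytosol by FABP4. DGAT enzymes join the last fatty acid to diacylglycerol, perilipins coat the resulting droplet, and the lipase ATGL (gene Pnpla2) starts its breakdown. Several of these genes are not confined to fat: Plin2 coats droplets in most cell types, and Cd36, Lpl, Fabp4 and Plin2 are also expressed by macrophages.

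The levels are TPM, reads divided by exon length and library total. Levels of different genes can be set side by side as far as the exon length used is that of the message. Read pairs recovered from the TPM values came to between 36500000 and 39700000 a library. The share of TPM from mitochondrially encoded genes was 15.3% in DMSO replicate 3 and 9.20% to 9.96% in the other 3 libraries, so DMSO replicate 3 stood apart in composition. Differences are of log2(TPM + 1), the CX-5461 mean less the DMSO mean, a scale that understates what happens to genes of low level. They are given ± the standard error of limma's fit over all genes, with 2 libraries a group. A gene passed at a Benjamini-Hochberg adjusted p under 0.05. A design of 2 libraries against 2 allows no two-sided exact permutation p below 0.333, so no test of single values was added. In bulk RNA, more cells of a type and more RNA per cell cannot be told apart.

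Of the 10 genes, 4 rose with CX-5461 and 0 fell. They were Cd36, Cebpa, Plin4 and Plin2, and the other 6 did not pass. Among all 14621 genes tested, 11.6% were called higher and 8.21% lower. In 5 of the 10 genes (those 4 and Fabp4) both CX-5461 libraries lay above both DMSO libraries, against 38.2% of all genes tested. No gene of the 10 lay the other way round, against 26.3% of all genes tested. The median difference of the 10 was 0.41, and that of all genes tested was 0.07. The genes were listed with earlier results of these data known, so these shares are a description and not a test. So the rises fell on the fatty acid receptor, on 1 of the 2 master factors and on both droplet coats, while the synthesis enzymes and the lipase had no call.

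**Figure D1:**
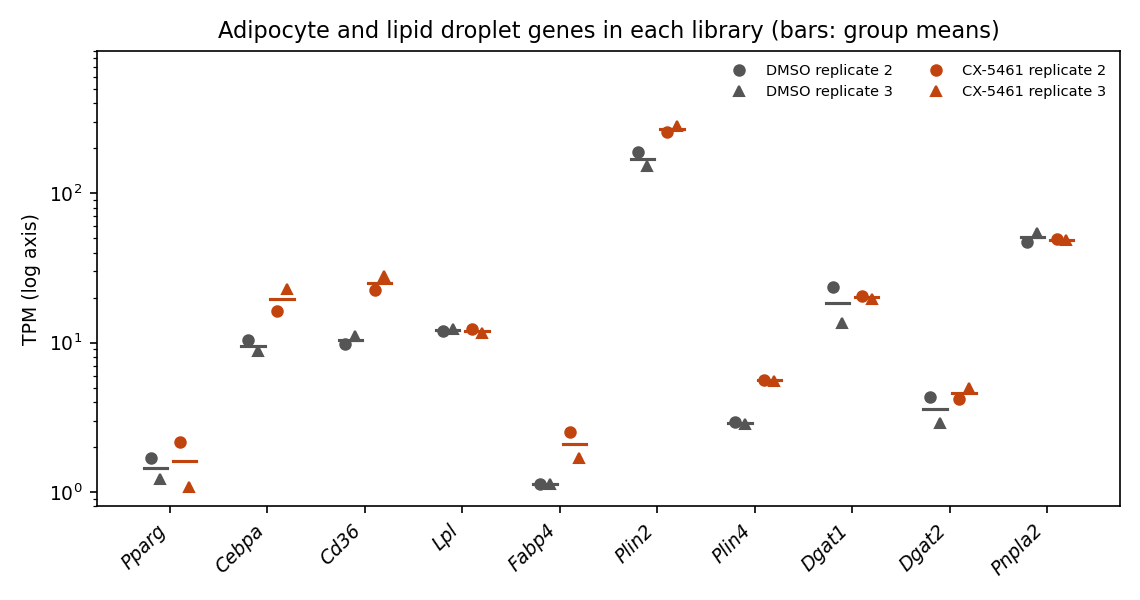
TPM (log axis) of the 10 genes in each library, with DMSO in grey and CX-5461 in orange, circles for replicate 2, triangles for replicate 3 and bars for the means of 2 libraries. Cd36, Cebpa, Fabp4, Plin2 and Plin4 have both orange points above both grey points, and Dgat1 has its lowest value, 13.6 TPM, in DMSO replicate 3.

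Among the regulators, Cebpa encodes C/EBPα, a factor that drives terminal adipocyte differentiation and halts proliferation. Its single-exon gene lies at chr7:35119293-35121928 (mm10, plus strand). Cebpa stood at 10.4 and 8.78 TPM in DMSO replicates 2 and 3 and at 16.3 and 22.9 TPM in CX-5461 replicates 2 and 3. Both CX-5461 libraries were above both DMSO libraries, and replicate 3 of CX-5461 was the highest of the 4. The means, 9.56 ± 1.11 and 19.6 ± 4.69 TPM (SD, n = 2), differed by 2.05-fold. The log2 difference was 0.95 ± 0.19, with a limma adjusted p of 0.0220. The call ended without DMSO replicate 2 (difference 1.06, limma adjusted p = 0.0537), without DMSO replicate 3 (0.84, 0.103) and when CX-5461 replicate 3 was left out (0.72, 0.127). Gm45091 is annotated antisense to Cebpa, and the sources used here do not say whether counting used strand, so reads of the pair cannot be told apart.

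Pparg encodes PPARγ, the nuclear receptor without which no adipocyte forms. It spans chr6:115360951-115490399 (plus strand) and has an antisense neighbour, Gm44079. Pparg was low throughout, at 1.68 and 1.23 TPM in DMSO replicates 2 and 3 and 2.14 and 1.07 TPM in CX-5461 replicates 2 and 3. The groups overlapped, and the 2 CX-5461 libraries were the highest and the lowest of the 4. These levels rested on 51, 42, 65 and 32 read pairs. The log2 difference was 0.06 ± 0.29 (limma adjusted p = 0.896), with a 95% interval of -0.66 to 0.79. A change of moderate size in either direction was therefore not detectable with 2 libraries a group. The table does not separate transcripts from the gene's different promoters.

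Among the genes of fatty acid uptake and carriage, Cd36 showed the largest difference of the 10. It encodes a scavenger receptor and fatty acid translocase of the plasma membrane and lies at chr5:17781690-17888801 (minus strand). Cd36 stood at 9.86 and 11.1 TPM in DMSO replicates 2 and 3 and at 22.6 and 27.9 TPM in CX-5461 replicates 2 and 3. The 2 groups lay well apart, with the lowest CX-5461 library at about the doubled level of the higher DMSO library. The means were 10.5 ± 0.861 and 25.2 ± 3.81 TPM (SD, n = 2), a 2.41-fold difference. The log2 difference of 1.19 ± 0.14 had a limma adjusted p of 0.00475. It ran from 364 and 460 read pairs to 831 and 1011. Of the 4 calls among the 10 genes it was the one held with 3 of the 4 libraries left out in turn, and it ended without CX-5461 replicate 3 (difference 1.04, limma adjusted p = 0.0526).

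Lpl encodes lipoprotein lipase, which frees fatty acids from circulating lipoproteins, at chr8:68880491-68907448 (plus strand). Lpl stood at 11.9 and 12.3 TPM in DMSO replicates 2 and 3 and at 12.3 and 11.6 TPM in CX-5461 replicates 2 and 3. All 4 libraries were within 1 TPM of each other. Its log2 difference was -0.02 ± 0.12 (limma adjusted p = 0.918), with a 95% interval of -0.30 to 0.26. Fabp4 encodes the fatty acid binding protein also called aP2, at chr3:10204088-10208576 (minus strand), and is among the most abundant messages of mature fat cells. In these fibroblasts Fabp4 stood at 1.13 and 1.14 TPM in DMSO replicates 2 and 3 and at 2.52 and 1.68 TPM in CX-5461 replicates 2 and 3. Both CX-5461 libraries were above both DMSO libraries, but they differed from each other more than the DMSO pair did. The log2 difference of 0.53 ± 0.25 did not pass (limma adjusted p = 0.192), with a 95% interval of -0.09 to 1.14. It rested on 52, 59, 116 and 76 read pairs. The exons of Fabp4 in the annotation add up to 4489 bases, the whole gene, since 1 annotated transcript retains its introns. That is 5.01 times the length of its principal transcript, so its TPM understates the level of a spliced message. The same ratio was 2.55 for Lpl and 1.00 to 1.86 for the other 8.

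**Figure D2:**
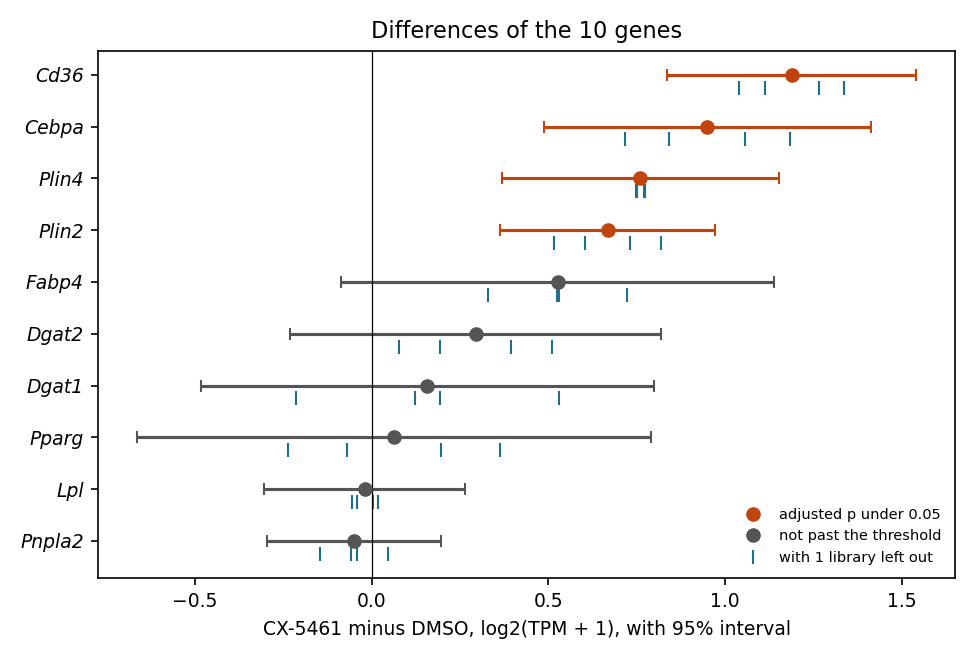
Difference between CX-5461 and DMSO on the log2(TPM + 1) scale for each of the 10 genes, with its 95% interval from limma (n = 2 libraries a group), orange where the adjusted p is under 0.05, and blue ticks for the 4 fits that leave out 1 library. The intervals of Cd36, Cebpa, Plin4 and Plin2 lie above 0, that of Fabp4 starts at -0.09, and the ticks of Dgat1 run from -0.22 to 0.53.

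Both perilipins of the list rose. Plin2 encodes perilipin 2, or ADRP, the coat protein of droplets in non-fat cells, at chr4:86648386-86670060 (minus strand). Plin2 stood at 188 and 153 TPM in DMSO replicates 2 and 3 and at 258 and 282 TPM in CX-5461 replicates 2 and 3. The groups did not overlap, and Plin2 was the highest of the 10 genes in every library. The means were 171 ± 25.3 and 270.2 ± 17.1 TPM (SD, n = 2), a 1.58-fold difference, and the log2 difference was 0.67 ± 0.12 (limma adjusted p = 0.0180). The call ended without CX-5461 replicate 2 (0.73, limma adjusted p = 0.102) and without CX-5461 replicate 3 (0.60, 0.165).

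Plin4 encodes perilipin 4, or S3-12, which coats small nascent droplets of adipocytes, at chr17:56100591-56109803 (minus strand). Plin4 stood at 2.93 and 2.85 TPM in DMSO replicates 2 and 3 and at 5.63 and 5.55 TPM in CX-5461 replicates 2 and 3. Within each group the libraries were nearly level, and between the groups they lay 1.93-fold apart. The log2 difference was 0.76 ± 0.16 (limma adjusted p = 0.0258). It ranged only over 0.75 to 0.77 with 1 library left out, yet the call ended each time (limma adjusted p = 0.0610 without DMSO replicate 2, 0.0825 without DMSO replicate 3, 0.143 without CX-5461 replicate 2 and 0.158 without CX-5461 replicate 3). Its values did not fall on whole reads with the exon length of the annotation, and it overlaps Hdgfl2 on the other strand, so its count is uncertain. Of the other family members, Plin3 did not pass at 81.4 ± 16.3 and 92.3 ± 0.149 TPM (limma adjusted p = 0.384). Plin1 and Plin5, the coats of fat cells and of oxidative tissue, were at 0.467 TPM or below in every library. Plin3, Plin1 and Plin5 are described here because they complete the family.

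The 2 diacylglycerol acyltransferases, which are unrelated enzymes that catalyse the same last step of triacylglycerol synthesis, had no call. Dgat1 (chr15:76502015-76511953, minus strand) stood at 23.5 and 13.6 TPM in DMSO replicates 2 and 3 and at 20.6 and 19.6 TPM in CX-5461 replicates 2 and 3. The CX-5461 pair lay between the 2 DMSO libraries. Its log2 difference was 0.16 ± 0.25 (limma adjusted p = 0.692). DMSO replicate 3, the library with the high mitochondrial share, decided the sign: the difference was -0.22 without it (limma adjusted p = 0.256) and 0.53 without DMSO replicate 2 (0.0495). Dgat2 (chr7:99153658-99182719, minus strand) stood at 4.29 and 2.92 TPM in DMSO replicates 2 and 3 and at 4.20 and 4.99 TPM in CX-5461 replicates 2 and 3. The groups overlapped, and DMSO replicate 3 was again the lowest. The log2 difference was 0.29 ± 0.21 (limma adjusted p = 0.373), 0.08 without DMSO replicate 3 and 0.51 without DMSO replicate 2.

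Pnpla2 (chr7:141455198-141460743, plus strand) encodes ATGL, the lipase that removes the first fatty acid from stored triacylglycerol. Pnpla2 stood at 47.4 and 54.3 TPM in DMSO replicates 2 and 3 and at 49.3 and 48.6 TPM in CX-5461 replicates 2 and 3. The CX-5461 pair lay between the DMSO libraries. Its log2 difference of -0.05 ± 0.10 (limma adjusted p = 0.751) had a 95% interval of -0.30 to 0.20, the narrowest of the 10.

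By level, the order with DMSO was Plin2, Pnpla2, Dgat1, Lpl, Cd36, Cebpa, Dgat2, Plin4, Pparg and Fabp4. Neighbours whose libraries overlapped were Cd36 with Cebpa and Dgat2 with Plin4. With CX-5461 the order was Plin2, Pnpla2, Cd36, Dgat1, Cebpa, Lpl, Plin4, Dgat2, Fabp4 and Pparg, with overlap between Dgat1 and Cebpa and between Fabp4 and Pparg. Cd36 thus had rank 6 and rank 5 of the 10 in DMSO replicates 2 and 3, and rank 3 in both CX-5461 libraries. Lpl had rank 4 in both DMSO libraries and rank 6 in both CX-5461 libraries. These orders depend on the exon lengths used, which were 5.01 times the principal transcript for Fabp4 and 2.55 times for Lpl. Both genes may therefore be ranked too low against the others.

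**Figure D3:**
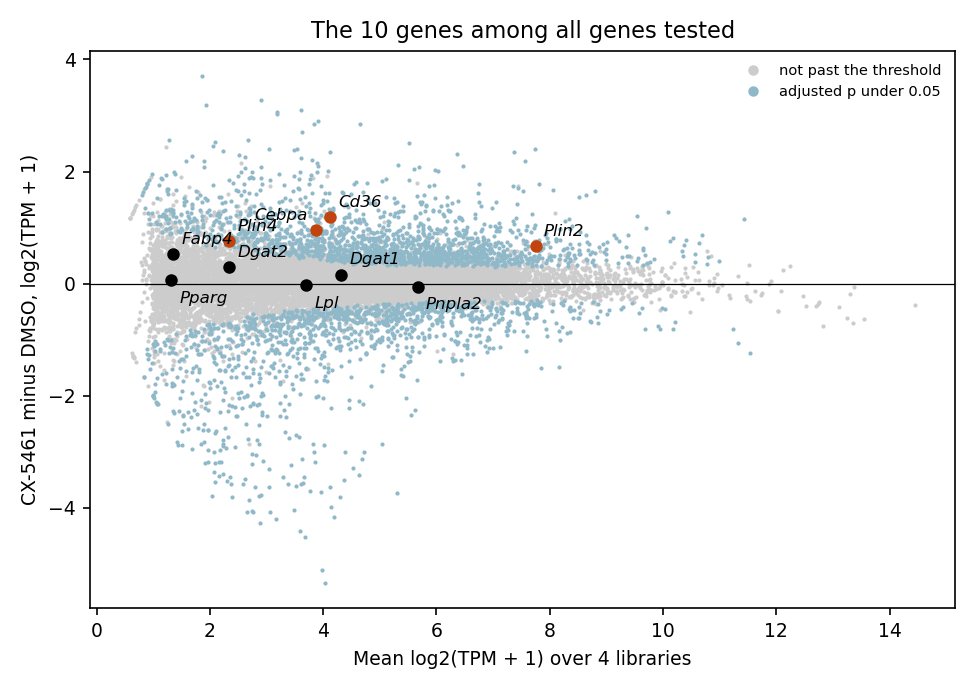
Difference between CX-5461 and DMSO against mean level, both on the log2(TPM + 1) scale, for the 14621 genes tested (grey and blue dots) and the 10 genes (large points, orange where the adjusted p is under 0.05 and black otherwise). Cd36, at 1.19, exceeds 97.6% of the genes tested, and Pparg, at 0.06, lies in the middle of them.

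The 250 bases before the transcription start are shown for the 4 genes that rose, because they moved together, and for Pparg, which did not pass, as a contrast. They come from RefSeq (GRCm38.p6, the assembly of mm10), in which 6 of the 10 genes had an entry. For Pparg the most downstream of 3 starts is shown. The Cd36 window lies inside the annotated span of its gene (chr5:17781690-17888801, minus strand), so it precedes an internal start. Each window is printed on its gene's strand, with capitals for matches to the motifs searched on both strands. The nuclear receptor hexamer was AGGTCA. DR1, the form PPAR binds, was 2 such hexamers 1 base apart. The C/EBP-type motif was TTGCNNAA. The E-box searched was CACGTG. The CCAAT box, the TATA box (TATAAA) and the GC box (read as GGGCGG) completed the search. A match to CCAAT may overlap other matches.
Cd36, chr5:17835897-17836146, minus strand: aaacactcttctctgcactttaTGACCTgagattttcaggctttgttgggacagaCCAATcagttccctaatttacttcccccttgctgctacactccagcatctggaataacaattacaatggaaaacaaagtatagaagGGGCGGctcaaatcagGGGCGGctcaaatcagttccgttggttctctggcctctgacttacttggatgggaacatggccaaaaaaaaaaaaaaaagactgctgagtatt
Cebpa, chr7:35119043-35119292, plus strand: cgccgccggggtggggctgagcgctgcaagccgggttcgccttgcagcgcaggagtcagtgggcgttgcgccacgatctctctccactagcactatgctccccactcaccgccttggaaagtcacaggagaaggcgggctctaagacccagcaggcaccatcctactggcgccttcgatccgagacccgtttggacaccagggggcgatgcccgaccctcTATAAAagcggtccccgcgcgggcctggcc
Plin2, chr4:86670060-86670309, minus strand: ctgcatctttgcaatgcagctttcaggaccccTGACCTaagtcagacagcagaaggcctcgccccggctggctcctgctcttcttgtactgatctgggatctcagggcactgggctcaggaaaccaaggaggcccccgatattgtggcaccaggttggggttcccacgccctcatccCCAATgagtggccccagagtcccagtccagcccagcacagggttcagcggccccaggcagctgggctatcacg
Plin4, chr17:56109783-56110032, minus strand: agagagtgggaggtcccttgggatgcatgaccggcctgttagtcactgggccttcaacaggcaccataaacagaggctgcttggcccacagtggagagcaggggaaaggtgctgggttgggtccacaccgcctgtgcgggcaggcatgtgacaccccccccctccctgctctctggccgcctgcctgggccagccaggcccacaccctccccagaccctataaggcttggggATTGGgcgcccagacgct
Pparg, chr6:115421816-115422065, plus strand: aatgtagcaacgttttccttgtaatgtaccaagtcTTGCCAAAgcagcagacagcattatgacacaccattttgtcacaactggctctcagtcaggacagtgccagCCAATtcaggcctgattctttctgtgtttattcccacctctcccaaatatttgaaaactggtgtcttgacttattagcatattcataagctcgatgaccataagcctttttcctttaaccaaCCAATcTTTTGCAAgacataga
Cd36 and Plin2 each held 1 nuclear receptor hexamer, on the other strand, 228 and 218 bases before the start. Both Pparg promoters that are not printed held it too, on the gene's strand, 28 and 9 bases before the start. Of all 32841 promoters of this length, 14.0% held that motif. None of the 8 promoters of the 6 genes held DR1, which was found in 0.0335% of all promoters. Cebpa had TATAAA 30 bases before its start, a motif of 12.4% of promoters, and Cd36, Plin2 and Plin4 had CCAAT, a motif of 33.9%. The Pparg promoter held 2 C/EBP-type matches, against 9.57% of promoters with at least 1. A match describes letters only, and these windows cover no enhancer.

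Other genes of the same pathways, listed by role with earlier results of these data known, were read from the same fit, in which 11.6% of all genes tested were higher and 8.21% lower. Of 23 tested factors that promote adipogenesis, 3 rose (13.0%) and 0 fell, with a median log2 difference of 0.11 (0.05 with median-of-ratios scaling and 0.01 without DMSO replicate 3). Ppard, the PPAR of most tissues, rose from 23.5 ± 1.03 to 37.4 ± 1.33 TPM (limma adjusted p = 0.00870). Rxra, the partner receptor of all PPARs, rose from 40.0 ± 2.74 to 60.3 ± 1.52 TPM (limma adjusted p = 0.0116). Cebpb, an early C/EBP factor of adipogenesis, rose from 94.1 ± 1.97 to 130.1 ± 9.41 TPM (limma adjusted p = 0.0210). Of 13 tested genes that hold adipogenesis back, 4 rose (30.8%) and 0 fell, with a median of 0.28. They were Wnt10a, a Wnt ligand (1.08 ± 0.588 to 5.14 ± 0.385 TPM), Dlk1, the preadipocyte factor Pref-1 (29.4 ± 1.56 to 43.2 ± 0.794 TPM), Gata3, a factor of preadipocytes (5.57 ± 0.530 to 10.2 ± 0.506 TPM), and Ddit3, or CHOP (difference 0.43).

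Of 17 other tested genes of lipoprotein breakdown and fatty acid uptake, 4 rose (23.5%) and 1 fell (5.88%). The shares of all genes tested were 11.6% and 8.21%. The median was 0.05. With median-of-ratios scaling 4 rose and 3 fell, and the median was -0.01. Angptl4, a secreted inhibitor of lipoprotein lipase, rose from 8.41 and 6.55 TPM in the DMSO libraries to 30.7 and 35.8 TPM in the CX-5461 libraries. Its log2 difference of 2.02 ± 0.15 (limma adjusted p = 0.00131) was larger than that of any of the 10 genes. Fabp3, the muscle-type fatty acid binding protein, rose from 90.8 ± 4.44 to 138 ± 2.34 TPM, and the transporter genes Slc27a3 and Slc27a1 rose by 0.64 and 0.51. Lipg, the endothelial lipase gene, fell from 23.0 ± 0.725 to 14.6 ± 0.331 TPM. Gpihbp1, the anchor of lipoprotein lipase on capillaries, was listed at 0 in all 4 libraries.

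Droplet and lipolysis genes also had several rises. Of 16 other tested droplet proteins, 4 rose (25%, against 11.6% of all genes tested) and 1 fell (6.25%, against 8.21%). Their median was 0.21. Bscl2, which encodes seipin, the protein that organises droplet budding from the endoplasmic reticulum, rose from 37.3 ± 0.0738 to 75.6 ± 1.96 TPM (limma adjusted p = 0.00172). Bscl2 overlaps Gng3 on the other strand and a further coding locus on its own strand, so its reads are uncertain. Rab18 (0.49) and Faf2 (0.36) rose as well. Pnpla2 itself had no call, while Abhd5 and G0s2, 2 of its direct regulators, moved in opposite directions. Abhd5, which encodes the activator CGI-58, rose from 35.0 ± 1.22 to 53.1 ± 2.59 TPM (limma adjusted p = 0.0103). G0s2, which encodes an inhibitor of ATGL, fell from 6.53 ± 2.77 to 1.98 ± 0.265 TPM (limma adjusted p = 0.0307). G0s2 overlaps Lamb3 on the other strand, and Abhd5 overlaps the antisense A730085K08Rik. Hilpda, which is in the droplet and lipolysis lists too, did not pass (difference 0.41, limma adjusted p = 0.124).

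Abhd5, G0s2 and Hilpda counted among the 16 other tested lipolysis genes as well. Of these 16, 5 rose (31.25%) and 1 fell (6.25%), with a median of 0.28. Mgll, the monoacylglycerol lipase of the last step, rose from 21.5 ± 3.27 to 37.5 ± 2.58 TPM (limma adjusted p = 0.0134). Prkar2b, a regulatory subunit of protein kinase A, rose from 19.1 ± 0.557 to 33.8 ± 0.332 TPM (limma adjusted p = 0.00441), and Pnpla7 (0.66) rose too. Of 17 other tested genes of triacylglycerol synthesis, 1 rose and 1 fell (5.88% each), below the 11.6% and 8.21% of all genes tested. Their median was 0.05 (-0.01 with median-of-ratios scaling). Lpin1, the phosphatidate phosphatase that makes diacylglycerol for the DGAT enzymes, rose from 22.4 ± 0.558 to 62.9 ± 3.09 TPM (limma adjusted p = 0.000729). Acsl3, an acyl-CoA synthetase of nascent droplets, fell from 38.8 ± 3.85 to 19.8 ± 1.66 TPM (limma adjusted p = 0.00553). It overlaps the coding gene Utp14b on its own strand, so its reads are uncertain.

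**Figure D4:**
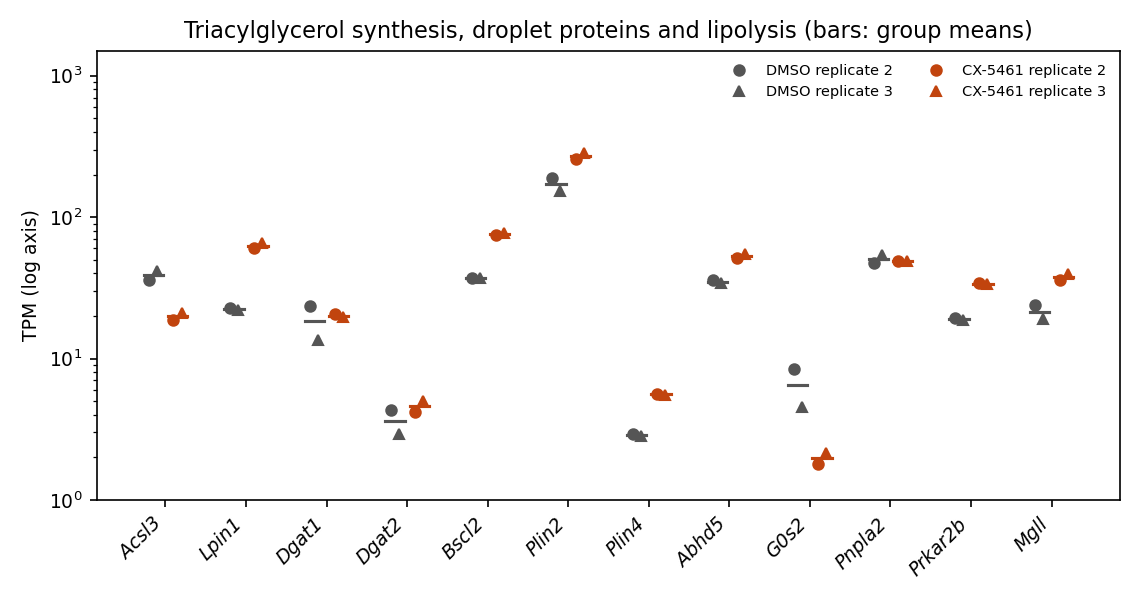
TPM (log axis) in each library for genes of triacylglycerol synthesis, droplet structure and lipolysis, with DMSO in grey, CX-5461 in orange, circles for replicate 2, triangles for replicate 3 and bars for the means of 2 libraries. Lpin1, Bscl2, Abhd5, Prkar2b and Mgll lie higher with CX-5461, Acsl3 and G0s2 lower, and Pnpla2 overlaps.

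Of 32 tested enzymes of fatty acid oxidation, 9 rose (28.1%, against 11.6% of all genes tested) and 1 fell (3.125%, against 8.21%). Their median was 0.29. Pdk4, a brake on pyruvate oxidation, rose from 3.16 ± 0.475 to 12.2 ± 1.47 TPM (limma adjusted p = 0.00288). Cpt1c, a brain-type member of the carnitine palmitoyltransferases, rose from 42.9 ± 0.718 to 76.2 ± 2.07 TPM, and Acox3, a peroxisomal oxidase, from 14.3 ± 1.32 to 27.2 ± 0.184 TPM. Acot2, a mitochondrial thioesterase, was the one that fell (-0.63). Without CX-5461 replicate 2 or without CX-5461 replicate 3, counts of genes higher dropped to 0 for the adipogenic factors, the inhibitors and the lipolysis genes. They dropped to 1 for uptake and for droplets and to 1 and 2 for oxidation, and the synthesis count stayed at 1. Without DMSO replicate 3 the oxidation count was 5 and the droplet count 2, and without DMSO replicate 2 the oxidation count was 15. Among the genes of these lists given with both means, Angptl4, Bscl2, Lpin1 and Pdk4 passed whichever library was left out, and the others did not.

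**Figure D5:**
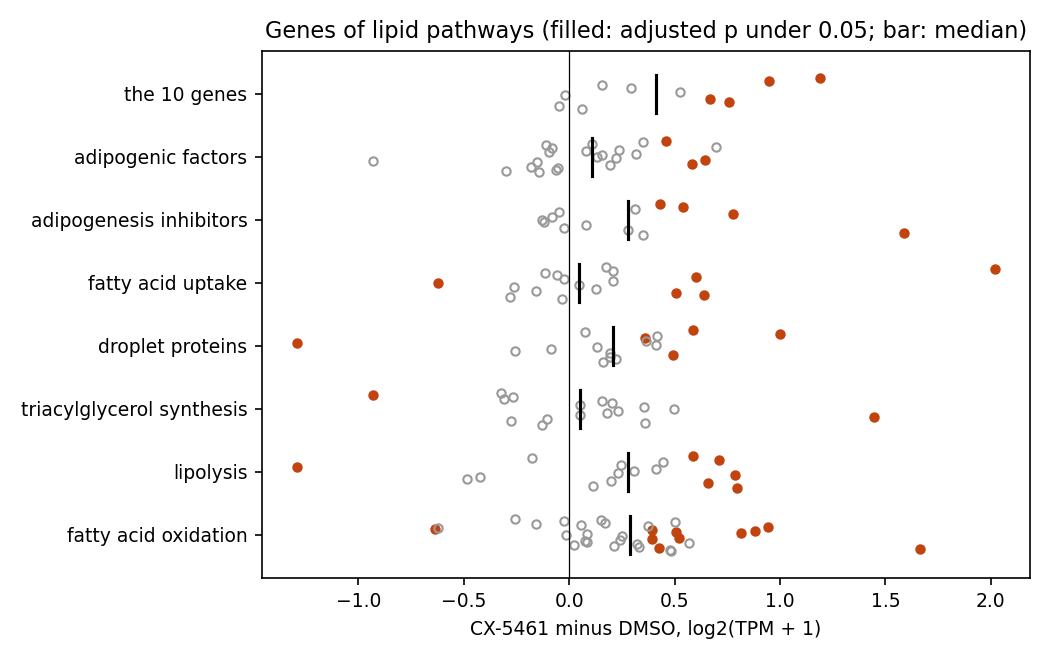
Difference between CX-5461 and DMSO on the log2(TPM + 1) scale for the tested genes of each list, with filled points for an adjusted p under 0.05 and a bar for the median. The 10 genes have a median of 0.41, and the lists of other genes range from 0.05 to 0.29.

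Markers of whole cell types were read beside these results. Of 21 markers of mature adipocytes, 4 passed the filter and 5 were at 0 in every library. Among the defining ones, Cfd, Lep and Retn were listed at 0 in all 4 libraries, Adipoq reached 0.125 TPM in DMSO replicate 3 and 0 elsewhere, and Plin1 reached at most 0.126 TPM. The label of adipocyte genes therefore describes the list and not the cells, whose defining adipocyte markers were at or near 0 in both groups. Of these markers only Adrb3, the β3-adrenergic receptor gene, rose, from 2.72 ± 1.20 to 7.50 ± 1.09 TPM (limma adjusted p = 0.0283). Adrb3 kept its call without DMSO replicate 2 (limma adjusted p = 0.0223) and lost it without each of the other 3 libraries, the highest value being 0.159 without CX-5461 replicate 2. Fibroblast markers were abundant, with Col1a1 at 3114 to 4321 TPM. Among the defining ones, Pdgfra fell from 33.1 ± 0.599 to 18.0 ± 0.912 TPM (limma adjusted p = 0.00415). Thy1 fell from 451 ± 21.9 to 294 ± 34.4 TPM (limma adjusted p = 0.0145). Col1a1 (limma adjusted p = 0.416) and Col1a2 (0.0503) did not pass. Of 15 tested fibroblast markers 1 rose and 6 fell (40.0%, against 8.21% of all genes tested). The number that fell was 10 with median-of-ratios scaling, 9 without DMSO replicate 3, 2 without CX-5461 replicate 2 and 1 without CX-5461 replicate 3.

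Macrophage markers were present: 12 of 16 were tested, of which 3 rose (25%, against 11.6% of all genes tested) and 0 fell. That count was 2 without DMSO replicate 3 and 0 when either CX-5461 library was left out. Those 3 were Lyz2, Cd14 and Adgre1. The summed level of all 16 was 713 and 708 TPM in the DMSO libraries and 979 and 1117 TPM in the CX-5461 libraries, most of it from Lyz2. Without Lyz2 the sums were 184, 200.1, 204 and 262 TPM in the same order. Adgre1, which encodes F4/80, rose from 4.74 ± 0.366 to 9.71 ± 1.04 TPM (limma adjusted p = 0.0137), a call lost without CX-5461 replicate 2 (0.105) or replicate 3. Csf1r stood at 10.6 ± 1.59 and 12.3 ± 1.14 TPM (limma adjusted p = 0.377) and Cd68 at 39.1 ± 17.6 and 44.9 ± 10.9 TPM (limma adjusted p = 0.653). Ptprc was at 0.656 to 1.27 TPM, and the one marker at 0 in all 4 libraries was Aif1. Cd36, Lpl, Fabp4 and Plin2 are macrophage genes too, and of these Lpl (limma adjusted p = 0.918) and Fabp4 (0.192) did not pass. The part of macrophages in the rise of Cd36 and Plin2 was not tested. Of the muscle markers, Myod1 and Myog were at 0 in all 4 libraries, and Ckm and Actn2 at 0.314 TPM or below. Of 16 muscle markers only 3 passed the filter, of which 2 rose and 1 fell, against 11.6% and 8.21% of all genes tested. Acta1 fell from 53.9 ± 4.71 to 19.4 ± 4.91 TPM (limma adjusted p = 0.00586). Des rose from 22.2 ± 2.70 to 33.3 ± 0.161 TPM and Mylpf from 0.855 ± 0.173 to 3.05 ± 0.485 TPM. The DMSO mean of Mylpf was under the 1 TPM of the filter, so it was tested only through its CX-5461 level. No muscle marker was called higher without DMSO replicate 3 or when either CX-5461 library was left out. The endothelial Pecam1 and Cdh5 were at 0.324 TPM or below in every library. Kdr and Tek, also defining endothelial markers, were at 6.16 to 24.1 TPM and 32.6 to 44.3 TPM and are described further below.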

How the data were processed

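The authors deposited TPM values for 4 libraries, 1 column each, every column summing to 1000000. Build mm10 is named in the submitters' processing notes and the BMKCloud platform processed the raw reads, per the labels' protocols. The sources used here do not give the aligner, counter or annotation. A TPM value is relative to the rest of its library. Groups and replicate numbers came from the sample titles, and 0 columns were unused. No label calls the replicates independent cultures, and p-values therefore measure only how these samples vary, and that spread may be technical.

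The test across all genes was limma 3.58.1, run in R 4.3.3 on log2(TPM + 1) for genes averaging 1 TPM or more (trend and robust options, no covariate, 2 residual and 3.75 prior degrees of freedom), with Benjamini-Hochberg adjustment. Positions and exon lengths came from GENCODE M21 (30110 symbols matched, 473 by another name). TPM times exon length fell on multiples of a smallest step: 87.7% of 67591 values above 0 and under 10000 steps were whole to 0.01 of a step, where chance gives 2%. Of those, 79.5% were even, so 2 steps were taken as 1 read pair. Replicates differed by more than counting noise (chi-square per degree of freedom 14.7 for DMSO and 8.41 for CX-5461). The procedure was tested on simulated data.

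The members and lists were chosen with earlier results of these data known. Named genes were the 10 members, up to 3 genes with the smallest adjusted p from each list of other genes (the 2 highest where none passed) and the defining markers of each cell type. Genes named because a count was 5 or fewer, the other perilipins, Hilpda, Gpihbp1 and Aif1 were chosen after their values were seen. The values of 1 listed gene are not reported here. The 14 alternatives were pseudocounts of 0.1 and 5, no filter, a filter of 5 TPM, 3 other scalings, limma without its options, a replicate block, voom on the recovered pairs, and each library left out. Figures used matplotlib 3.10.9 in Python 3.11.15.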

Additional observations from a re-analysis of the deposited data

How the results depend on the processing

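Among the 10 genes the directions of the 4 calls held under all 14 alternatives in which each gene was tested. The number called higher was 4, and ran from 0 to 3 with 1 library left out: 3 without DMSO replicate 2 (Cd36, Plin2 and Dgat1), 2 without DMSO replicate 3, 2 if CX-5461 replicate 2 was left out, and 0 without CX-5461 replicate 3. The number called lower was 0 throughout. Each fit lacking a CX-5461 library took its spread from the 2 DMSO libraries. Over all genes, the number higher was 1694, and 1051 without a filter, 1128 without limma's trend and robust options and 237 to 2047 with 1 library left out. The number lower was 1201, and 2303 with voom on the recovered pairs and 364 to 891 with 1 library left out. Cebpa did not pass without a filter (limma adjusted p = 0.0561), and Plin2 did not pass without limma's options (0.0528). A filter of 5 TPM left Pparg, Fabp4, Plin4 and Dgat2 untested. Without a filter and without limma's options the number higher was 5 of the oxidation genes and 2 of the droplet genes each time, 2 and 3 of the uptake genes, and 0 of the adipocyte markers. The number of fibroblast markers lower was 10 with rescaling and with voom and 9 with quantile normalization, and that of uptake genes lower was 3 in all of these. The median over all genes moved from 0.07 to between 0.002 and 0.02 under the 3 other scalings, by less than 0.1. Over all genes 1652 were higher and 1655 lower with median-of-ratios scaling, and 1638 and 1646 with quantile normalization. With rescaling 1621 were higher and 1687 lower, so the excess of higher genes in the main fit was not seen under the 3 other scalings.

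With 1 library left out, signs turned for 6 genes without a call: Pparg ranged over -0.24 to 0.36 (-0.07 without DMSO replicate 3), Lpl over -0.057 to 0.017 (0.0033 without DMSO replicate 3), Dgat1 over -0.22 to 0.53, Pnpla2 over -0.15 to 0.046, Cd68 over -0.22 to 0.71 and Col1a1 over -0.44 to 0.028. The cause was not tested. Labels give both groups the replicate numbers 2 and 3, but deviations of same-numbered libraries correlated at only 0.0307 over 14621 genes, so the numbers were not taken as pairs. With a replicate block, 4 of the 10 genes rose and 0 fell, and 1589 genes were higher and 1100 lower. The block changed no call among the 10.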

Other observations

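Among markers of endothelial cells, Kdr, the VEGF receptor gene, rose from 6.16 and 6.42 TPM in the DMSO libraries to 23.8 and 24.1 TPM in the CX-5461 libraries, with a log2 difference of 1.78 ± 0.11 (limma adjusted p = 0.000729). It passed whichever library was left out. Tek, the angiopoietin receptor gene, fell from 44.0 ± 0.441 to 33.3 ± 0.890 TPM (limma adjusted p = 0.0299), a call that ended whichever library was left out (limma adjusted p = 0.0567 to 0.221). Of 6 tested endothelial markers, 1 rose (16.7%, against 11.6% of all genes tested) and 2 fell (33.3%, against 8.21%). Ecscr, named because it was 1 of the 2 markers that fell, dropped from 32.8 and 36.5 TPM to 15.5 and 17.6 TPM. Pecam1 was at 0.0937 TPM or below in all 4 libraries.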
